A study of Mus musculus with 2 samples.

Results

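The genes that make, bind, break down and anchor cyclic AMP were compared between pancreatic islets of the mouse strains B6 and CAST. They were taken as all genes whose symbol begins with Adcy or Pde and a digit, or with Prkac, Prkar, Akap or Rapgef, leaving out the neuropeptide gene Adcyap1 and its receptor gene Adcyap1r1. This gave 70 of the 38924 genes in the files, of which 37607 could be matched to a symbol: 10 Adcy, 3 Prkac, 4 Prkar, 12 Rapgef, 25 Pde and 16 Akap genes. The symbol alone decided membership and no measured value entered the rule, but the rule was set with earlier results of these data known. One group was islets of male C57BL/6J (B6) mice, the inbred strain on which the reference genome is based, and the other was islets of male mice of the wild-derived inbred strain CAST/EiJ (CAST), of the subspecies Mus musculus castaneus. The mice carried no transgene or other engineered allele in the labels, were 10 weeks old and ate standard chow, and the islets of both strains were freed with collagenase, picked by hand and held in buffer with 16.7 mM glucose. Islets of 2 mice per strain were pooled, and 250 islets of each pool gave 1 RNA library per strain. There is therefore no replicate check of any difference, no difference between the strains was tested, and every ratio compares these 2 libraries only.

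Cyclic AMP is made from ATP by adenylyl cyclases, mostly on command of a stimulatory G protein, and is destroyed by phosphodiesterases. It acts through protein kinase A (PKA), in which regulatory subunits hold catalytic subunits silent until cyclic AMP binds, and through the Epac exchange factors, which switch on the small GTPase Rap. A-kinase anchoring proteins (AKAPs) tether PKA, often together with a cyclase or a phosphodiesterase, to one place in the cell. In beta cells, the insulin-secreting cells of the islet, cyclic AMP raised by incretin hormones is known to amplify insulin secretion that glucose has started.

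The B6 library held 76600970 expected counts (reads assigned to a gene) and the CAST library 104324693, and the 70 genes took 0.363% and 0.329% of them. Levels are given as TPM, the per-length share of all transcript molecules, and the members summed to 1080 TPM in B6 and 866 TPM in CAST. The islet label was checked against cell type markers: all 7 beta cell markers were detected in both libraries, with Ins2 alone at 40.4% of TPM in B6 and 47.8% in CAST. Other cell types differed between the pools. The 10 acinar (exocrine) markers summed to 6084 TPM in B6 and 19194 TPM in CAST, and all 10 were at least 2-fold higher in CAST. The 7 stellate and fibroblast markers summed to 22.8 and 47.5 TPM, 5 of them at least 2-fold higher in CAST, and the 6 endothelial markers to 160 and 166 TPM. The 5 duct markers summed to 94.3 and 62.4 TPM. Of the 4 duct markers with 100 or more counts, 2 were at least 2-fold higher in CAST. The 5 neural and Schwann markers summed to 11.7 and 9.41 TPM, 1 of them at least 2-fold higher in CAST. No marker passed 2-fold among the 5 of pericytes and smooth muscle (48.2 and 39.6 TPM) or the 7 of leukocytes (18.5 and 13.4 TPM). The 5 alpha cell markers summed to 62965 and 38040 TPM with 4 of 5 lower in CAST, and the 4 delta and PP cell markers to 13455 and 9796 TPM with 3 of 4 lower. The marker of that list that was higher in CAST was Ppy, the PP cell hormone gene, at 5152 and 6300.5 TPM. Of 4 adipocyte markers 3 had 0 counts in both libraries. The other adipocyte marker, Fabp4, had 562 counts (15.6 TPM) in B6 and 312 (5.55 TPM) in CAST, at least 2-fold higher in B6. No marker of the other lists named here was at 0. In such bulk samples, fewer cells of a type and less RNA per cell cannot be told apart.

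Between-strain ratios are log2 of CAST over B6 on counts scaled with TMM factors, and the 95% intervals beside them are exact Clopper-Pearson intervals that cover counting error only. Ratios were read for the 56 members that had 100 or more counts over both libraries. Just inside that limit lay Akap5 with 112 counts, Adcy8 with 141 and Pde6c with 143, and just outside it Rapgef4os2 with 50, Akap3 with 48 and Pde6b with 37. Of the 56 members 4 were at least 2-fold higher in CAST. Among all 14768 genes with as many counts, 7.18% were. On the B6 side 2 members were at least 2-fold higher, and 5.99% of all genes were. In either direction that was 10.7% of members against a background of 13.2%; with protein-coding transcripts only it was 12.7% against 10.6%. The members' share thus lay near the background, and is no result about them as a set. The members' median log2 ratio was -0.01 and that of all genes 0.02, with 28 members above 0 and 28 below. The 4 higher in CAST were the anchoring genes Akap6 and Akap12 and the phosphodiesterase genes Pde7b and Pde8b. The 2 higher in B6 were the cyclase genes Adcy1 and Adcy2. All 6 lay at 5 TPM or less in both libraries, and the leading member of every family lay within 1.5-fold. The all-gene median was -0.14 when total counts replaced the TMM scaling and -0.26 when TPM was compared, so a TPM that is slightly lower in CAST can go with a count ratio near 0.

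**Figure D1:**
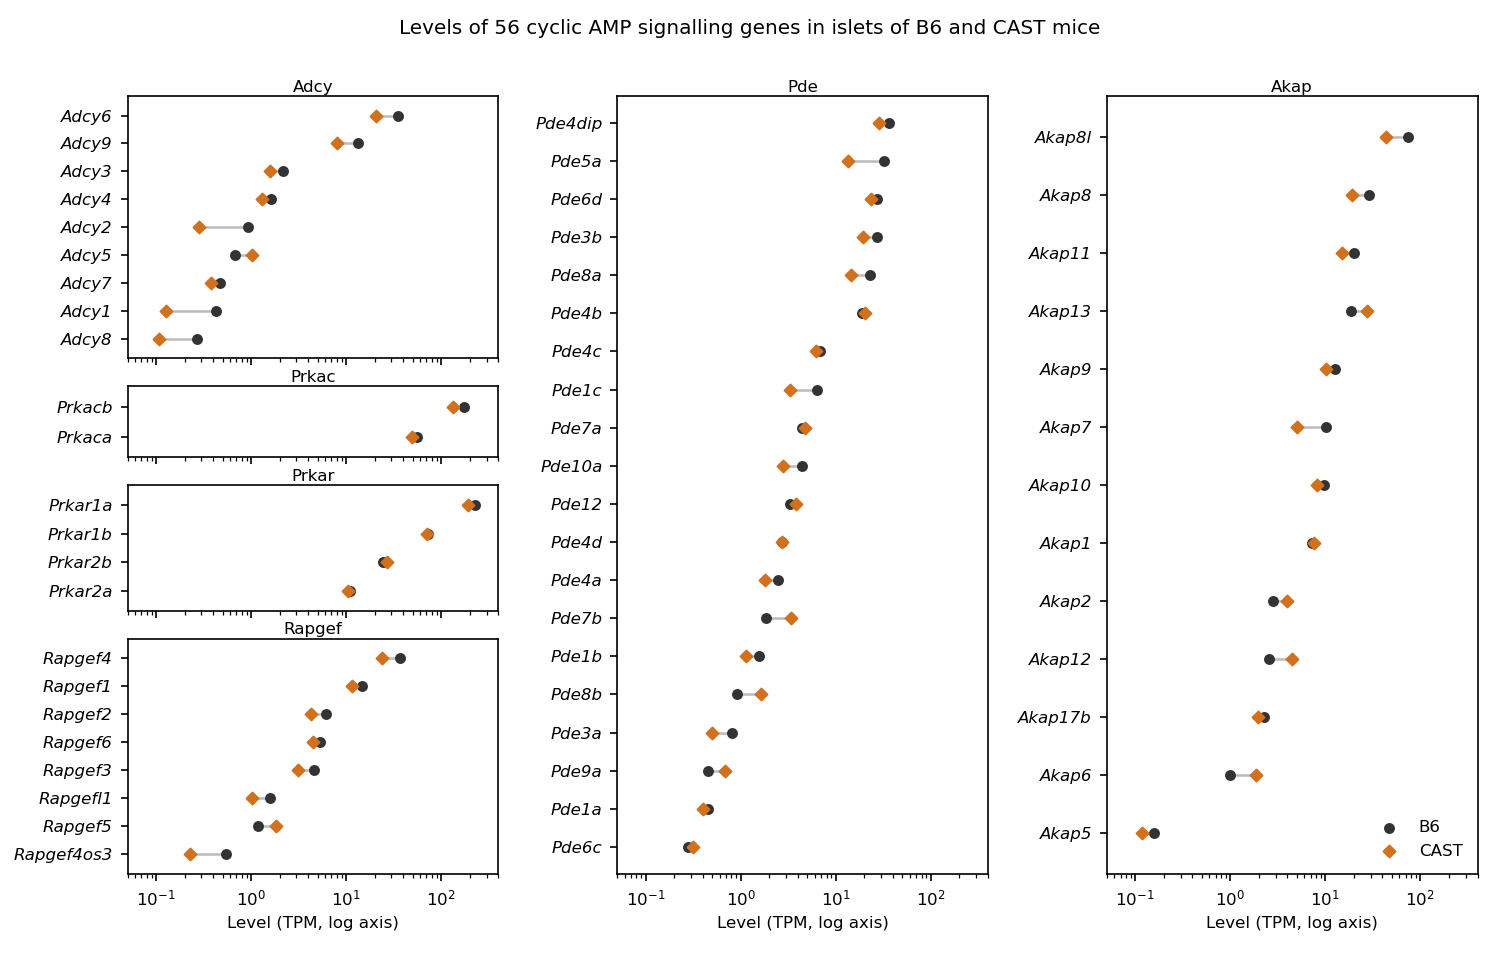
Level (TPM, log axis) of the 56 members with 100 or more counts, by symbol group, with circles for the B6 library and diamonds for the CAST library, 1 library per strain. Prkar1a at 224 and 189 TPM and Prkacb at 173 and 134 TPM lie farthest to the right in both libraries, while Adcy1, Adcy2 and Adcy8 lie under 1 TPM.

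**Figure D2:**
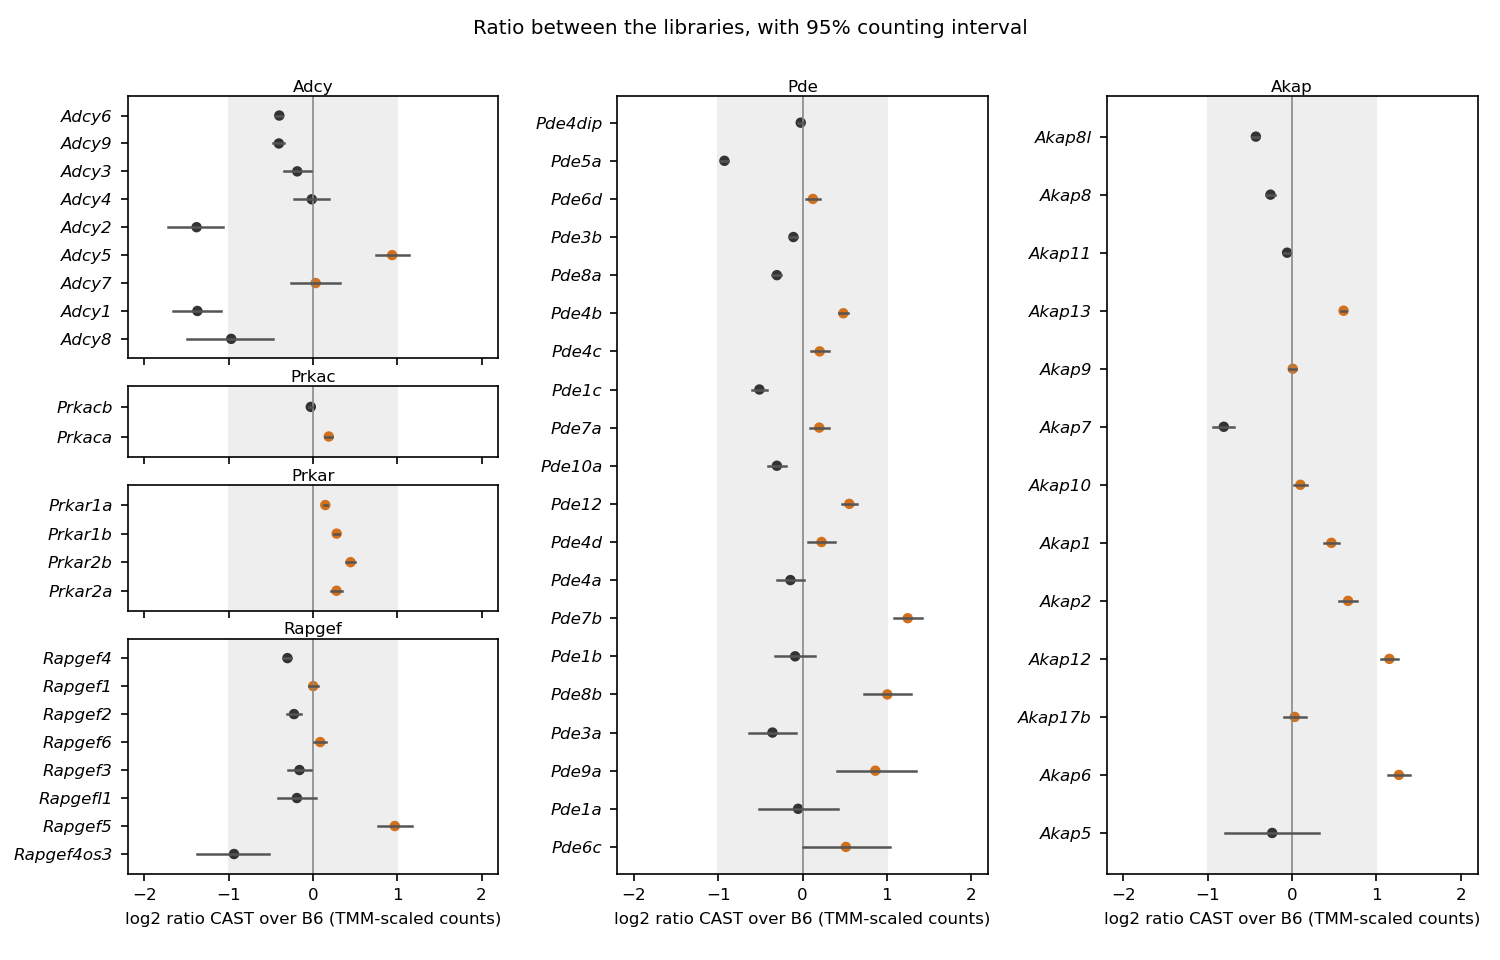
Log2 ratio of CAST over B6 (TMM-scaled counts) of the same 56 members; bars are 95% counting intervals, dark points lie below 0 and orange points above, and the grey band spans the ratios under 2-fold. Akap6, Pde7b, Akap12 and Pde8b lie above the band and Adcy2 and Adcy1 below it.

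Among the cyclases, Adcy6 carried most of the transcripts in both strains. It is a membrane cyclase inhibited by calcium (chromosome 15, 98589973 to 98610076, GRCm38), with 13367 counts (34.8 TPM) in B6 and 12387 (20.8 TPM) in CAST. Its log2 ratio was -0.40 (interval -0.43 to -0.36), 1.32-fold higher in B6. Adcy9, a cyclase only weakly responsive to forskolin, came second with 3979 counts (13.5 TPM) in B6 and 3674 (8.02 TPM) in CAST. Its log2 ratio was also -0.40 (-0.47 to -0.34), and Adcy6 stood 2.58-fold above Adcy9 in B6 and 2.59-fold in CAST. The same pair thus led the cyclases in both libraries, and both lay below the all-gene median with TMM, total counts and TPM.

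The remaining cyclase genes lay near or under 2 TPM. Adcy5, the closest relative of Adcy6 and likewise inhibited by calcium, went the other way, with 304 counts (0.68 TPM) in B6 and 713 (1.02 TPM) in CAST. Its log2 ratio was 0.94 (0.74 to 1.14), 1.92-fold higher in CAST, so that Adcy6 exceeded Adcy5 51.3-fold in B6 and 20.3-fold in CAST. The cyclases that calcium and calmodulin stimulate are Adcy1, Adcy3 and Adcy8, and each had a ratio below 0. Adcy1 (chromosome 11, 7063489 to 7178506) had 333 counts (0.43 TPM) in B6 and 157 (0.13 TPM) in CAST. Its log2 ratio was -1.37 (-1.66 to -1.10), 2.59-fold higher in B6. Adcy8, at 87 counts (0.27 TPM) and 54 (0.11 TPM), had a log2 ratio of -0.97 (-1.49 to -0.47). Adcy3 was the most abundant of the calcium-stimulated forms, at 636 counts (2.18 TPM) in B6 and 683 (1.57 TPM) in CAST, with a log2 ratio of -0.19 (-0.34 to -0.03). Adcy3 shares 1380 exon bases with Cenpo on the opposite strand, and with a strand setting not given in the sources used here, reads of that stretch could belong to either gene.

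Of the cyclases that respond to G protein beta-gamma subunits or protein kinase C, Adcy2 stood apart. It (chromosome 13, 68620043 to 68999541) had 250 counts (0.93 TPM) in B6 and 117 (0.28 TPM) in CAST, and its log2 ratio was -1.38 (-1.71 to -1.06), 2.60-fold higher in B6. Adcy4, at 357 counts (1.63 TPM) and 432 (1.29 TPM), had a ratio of -0.01 (-0.22 to 0.19), and Adcy7, at 180 (0.47 TPM) and 225 (0.38 TPM), one of 0.03 (-0.26 to 0.32). Both intervals include 0, and they cover counting error only. Adcy10, the soluble bicarbonate-sensitive cyclase, had 1 count in B6 and 4 in CAST. Over the 9 cyclase genes with enough counts the median was -0.40 and 7 of 9 lay below the all-gene median, a count that was 5 of 9 when TPM was compared. The alpha cell markers (4 of 5 lower in CAST, median -0.73) moved the same way as Adcy1, Adcy2 and Adcy8. So did the delta and PP cell markers (3 of 4 lower, median -0.84) except the PP cell marker Ppy, at 0.64 (0.63 to 0.65). The part of these cell types in the cyclase ratios was not tested.

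The catalytic subunits of PKA differed little. Prkacb (chromosome 3, 146729574 to 146812990) had 45791 counts (173 TPM) in B6 and 54976 (134 TPM) in CAST, with a log2 ratio of -0.03 (-0.04 to -0.01). Prkaca, which encodes the alpha form (chromosome 8, 83972993 to 83996443), had 7892 counts (55.1 TPM) and 10984 (49.4 TPM), with a ratio of 0.19 (0.15 to 0.23). The beta form was thus the major catalytic transcript in both strains, 3.15-fold above Prkaca in B6 and 2.71-fold in CAST. The pseudogene Prkaca-ps1 had 0 counts in both libraries. Prkacb is read from several starts that give different first exons: Prkacb-202 (coding length 1053 bases) made up 47.1% of Prkacb TPM in the B6 library and 45.9% in CAST, Prkacb-204 (1017 bases) 33.0% and 32.6%, and Prkacb-203 (1014 bases) 19.3% and 20.9%. The division among starts therefore differed by under 2 percentage points between the libraries for each of these. The promoter sequences of the first and the last of these 3 starts are shown because they are the ends of the gene's range of used starts. They are the 250 bases upstream of RefSeq starts in GRCm38.p6, 5′ to 3′ on the minus strand, chr3:146812947-146813196 and chr3:146770239-146770488, and capitals mark TGACG or CGTCA, the short form of the cyclic AMP response element read on either strand.
Prkacb-202 start: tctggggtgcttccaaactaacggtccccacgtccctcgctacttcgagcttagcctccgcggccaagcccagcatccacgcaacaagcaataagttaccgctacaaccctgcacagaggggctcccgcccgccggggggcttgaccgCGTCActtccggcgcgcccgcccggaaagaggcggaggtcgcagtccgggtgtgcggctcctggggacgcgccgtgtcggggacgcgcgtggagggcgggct
Prkacb-203 start: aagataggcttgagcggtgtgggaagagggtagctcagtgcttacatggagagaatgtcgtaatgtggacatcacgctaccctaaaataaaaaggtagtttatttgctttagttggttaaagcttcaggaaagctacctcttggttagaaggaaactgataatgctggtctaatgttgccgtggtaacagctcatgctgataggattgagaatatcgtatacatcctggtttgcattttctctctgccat
The first window was 69.2% G and C and held 1 short element, 102 bases before its start. The second was 42.0% G and C and held none.

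All 4 regulatory subunit genes of PKA lay above the all-gene median, under every scaling and filter that was run. Prkar1a, the type I alpha subunit (chromosome 11, 109649405 to 109669656), was the most abundant of the 70 genes, at 45821 counts (224 TPM) in B6 and 61975 (189 TPM) in CAST, rank 246 and 269 of all genes by TPM. Its log2 ratio was 0.15 (0.13 to 0.16). Prkar1b, the type I beta subunit known mainly from neurons, followed at 12007 counts (73.2 TPM) and 17831 (70.8 TPM), with a ratio of 0.28 (0.25 to 0.31). The type II subunits, which are the usual partners of AKAPs, were less abundant. Prkar2b had 5060 counts (24.5 TPM) and 8425 (26.7 TPM), and its ratio of 0.45 (0.40 to 0.50), 1.36-fold higher in CAST, was the highest of the 4. Prkar2a had 2791 counts (10.9 TPM) and 4140 (10.4 TPM), with a ratio of 0.28 (0.21 to 0.35). The family median was 0.28 with TMM scaling, 0.12 with total counts and -0.05 with TPM, in each case above the all-gene median of that scale. None of the 4 reached 2-fold.

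Within each library, the summed TPM of regulatory over catalytic subunits was 1.46 in B6 and 1.62 in CAST. Type I exceeded type II subunits 8.40-fold in B6 and 7.02-fold in CAST, and Prkar1a exceeded Prkar1b 3.06-fold and 2.68-fold. Such ratios are taken inside a library and need no scaling between them, but they are ratios of transcripts, not of protein.

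Prkar1a showed the same division between starts in both strains. Prkar1a-201 held 60.8% of its TPM in B6 and 61.1% in CAST, and Prkar1a-203, which begins further upstream with other leading exons, 32.6% and 35.9%; both have a coding length of 1143 bases. The 250 bases upstream of both starts (RefSeq, GRCm38.p6, plus strand) are shown because the window of the major start was the one searched window of a member gene that held the complete cyclic AMP response element, TGACGTCA. They lie at chr11:109649113-109649362 and chr11:109650699-109650948, and capitals mark the complete or the short element.
Prkar1a-203 start: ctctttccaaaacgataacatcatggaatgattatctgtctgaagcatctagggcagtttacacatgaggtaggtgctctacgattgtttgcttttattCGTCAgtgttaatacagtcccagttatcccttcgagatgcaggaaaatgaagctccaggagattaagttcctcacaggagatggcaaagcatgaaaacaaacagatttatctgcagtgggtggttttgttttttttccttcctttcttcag
Prkar1a-201 start: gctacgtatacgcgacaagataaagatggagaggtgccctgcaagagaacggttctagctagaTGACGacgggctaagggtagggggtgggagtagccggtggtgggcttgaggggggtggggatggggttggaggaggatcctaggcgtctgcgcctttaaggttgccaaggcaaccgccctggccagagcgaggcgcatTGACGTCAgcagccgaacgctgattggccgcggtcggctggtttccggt
In the lower sequence the complete element begins 49 bases before the RefSeq start, and a short element begins 187 bases before it. In the upper sequence a short element begins 151 bases before the start. RefSeq windows were matched for 54 of the 70 genes, 95 windows in all. The complete element stood in 1 of them (1.05%) and in 508 of 32851 windows of all genes (1.55%), and a short element in 16 (16.8%) against 17.8% of all windows. Counted by gene, 14 of 54 members (25.9%) had a short element in at least 1 window, against 19.8% of all genes, and genes differ in their number of windows. TGACGTCA contains both short forms, and both strands were searched. A match is a string of letters and not a measured binding site.

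Of the Rapgef genes, which encode exchange factors for Rap, only Rapgef3 and Rapgef4 are the cyclic AMP sensors Epac1 and Epac2. Rapgef4 (chromosome 2, 71981240 to 72257474) had 9328 counts (36.6 TPM) in B6 and 9240 (23.7 TPM) in CAST, with a log2 ratio of -0.30 (-0.34 to -0.26). Rapgef3 had 893 counts (4.57 TPM) and 977 (3.12 TPM), with a ratio of -0.16 (-0.29 to -0.03). Both Epac genes lay below the all-gene median, also when TPM or total counts were compared. Epac2 transcripts outnumbered Epac1 transcripts 8.0-fold in B6 and 7.57-fold in CAST, and 92.4% and 90.4% of Rapgef4 TPM was 1 transcript, Rapgef4-202. Rapgef3 shares 351 exon bases with the antisense gene Rapgef3os2 and Rapgef4 337 with Rapgef4os2, which had at most 5 and 32 counts in a library.

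The exchange factors other than Epac1 and Epac2 were mostly even. Rapgef1, which acts downstream of Crk adaptors, had 5225 counts (14.8 TPM) in B6 and 6398 (11.4 TPM) in CAST, with a log2 ratio of 0.00 (-0.05 to 0.06). Rapgef2 had 2209 (6.07 TPM) and 2310 (4.28 TPM), with a ratio of -0.22 (-0.31 to -0.14), and Rapgef6, its near relative, 2633 (5.27 TPM) and 3415 (4.51 TPM), with 0.09 (0.01 to 0.16). Rapgefl1 had 325 counts (1.59 TPM) and 348 (1.02 TPM), with -0.19 (-0.41 to 0.03). Rapgef5 was the exception, at 299 counts (1.18 TPM) and 717 (1.83 TPM): its ratio of 0.97 (0.78 to 1.17), 1.96-fold higher in CAST, fell just short of 2-fold. The antisense gene Rapgef4os3 had the lowest ratio of the group, at 121 counts (0.55 TPM) and 77 (0.23 TPM) and log2 -0.94 (-1.37 to -0.52).

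The phosphodiesterase genes among the 70 fall into enzymes that take cyclic AMP only (Pde4, Pde7, Pde8), cyclic GMP only (Pde5, Pde6, Pde9) or both (Pde1, Pde3, Pde10, Pde11). The other Pde symbols with enough counts name different proteins: Pde4dip is the centrosome and Golgi protein myomegalin, Pde6d a carrier of prenylated proteins, and Pde12 a nuclease of oligoadenylates. Among the enzymes of both nucleotides, Pde3b (chromosome 7, 114415281 to 114539251) led. It is inhibited by cyclic GMP and known as a main cyclic AMP phosphodiesterase of beta cells, and had 10647 counts (27.0 TPM) in B6 and 12073 (19.5 TPM) in CAST, with a log2 ratio of -0.11 (-0.15 to -0.07). Its relative Pde3a stood 33.3-fold lower in B6 and 39.1-fold lower in CAST. Pde1c, which calcium and calmodulin activate, had 2283 counts (6.41 TPM) and 1957 (3.29 TPM), and its ratio of -0.51 (-0.60 to -0.42), 1.43-fold higher in B6, was the lowest of this class. Pde1c, Pde3a and the other 4 genes of the class with enough counts all lay below the all-gene median with TMM scaling, between -0.51 and -0.05, but 4 of 6 did when TPM was compared. Their summed level was 40.7 TPM in B6 and 27.7 TPM in CAST.

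Genes of the cyclic AMP-specific enzymes lay higher: 6 of 8 were above the all-gene median, with TMM scaling, total counts and TPM alike, at a class median of 0.21 on the TMM scale. Their summed level was 60.8 TPM in B6 and 55.3 TPM in CAST. Pde8a, a high-affinity enzyme not blocked by the common inhibitor IBMX, was the most abundant in B6, with 5401 counts (22.7 TPM) there and 5345 (14.6 TPM) in CAST, and a log2 ratio of -0.30 (-0.36 to -0.25). Pde4b, the main rolipram-sensitive form here, was the most abundant in CAST, with 4011 counts (18.9 TPM) in B6 and 6858 (20.2 TPM) in CAST, and a ratio of 0.48 (0.43 to 0.54). Pde4c, at 1269 counts (6.81 TPM) and 1786 (6.22 TPM), had a ratio of 0.20 (0.10 to 0.31). Pde4a and Pde4d were at 612 and 548 counts in B6 and 677 and 783 in CAST, with ratios of -0.14 and 0.23, and the 4 Pde4 genes together held 30.9 TPM in B6 and 31.0 TPM in CAST.

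The minor paralogs Pde7b and Pde8b showed the larger differences. Pde7b (chromosome 10, 20398004 to 20725078) had 421 counts (1.84 TPM) in B6 and 1223 (3.37 TPM) in CAST, with a log2 ratio of 1.25 (1.09 to 1.41), 2.38-fold higher in CAST. Pde7a, its paralog, was at 4.43 and 4.73 TPM with a ratio of 0.20, so Pde7a exceeded Pde7b 2.40-fold in B6 and 1.40-fold in CAST. Pde8b (chromosome 13, 95024454 to 95250336) had 153 counts (0.90 TPM) and 376 (1.65 TPM), with a ratio of 1.01 (0.73 to 1.29), 2.01-fold higher in CAST and at the 2-fold line. Pde8a exceeded Pde8b 25.1-fold in B6 and 8.84-fold in CAST. In both paralog pairs, then, the major gene led in both libraries and by less in CAST. The pairs were taken up because the minor gene passed 2-fold in CAST, so the smaller lead largely follows from that choice. Pde3b led Pde3a by more in CAST, 33.3-fold in B6 and 39.1-fold in CAST. The acinar and fibroblast markers, higher in CAST as given above, moved the same way as Pde7b and Pde8b, and their part was not tested.

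Pde5a was the abundant phosphodiesterase that differed most. It encodes the cyclic GMP-specific enzyme that sildenafil blocks (chromosome 3, 122728947 to 122859374), and had 14018 counts (32.6 TPM) in B6 and 9013 (13.5 TPM) in CAST. The log2 ratio was -0.93 (-0.96 to -0.89), 1.90-fold higher in B6, and it passed 2-fold when total counts or TPM were compared. By TPM, Pde5a stood above Pde3b in B6 (1.21 times its level) and below it in CAST (0.692 times). Of the other cyclic GMP enzymes, Pde9a had 56 and 125 counts and Pde6c 52 and 91, with ratios of 0.86 (0.40 to 1.35) and 0.51 (0.01 to 1.04).

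Among the Pde symbols of other function, Pde4dip had 14221 counts (36.8 TPM) in B6 and 17128 (28.7 TPM) in CAST, with a log2 ratio of -0.02 (-0.05 to 0.01). It was the most abundant gene of the Pde group, though not an enzyme of cyclic nucleotides. Pde6d had 1917 counts (27.4 TPM) and 2552 (23.5 TPM), with a ratio of 0.12 (0.04 to 0.21). Pde12 had a ratio of 0.55 (0.47 to 0.64) at 1617 and 2903 counts, and it shares 527 exon bases on the opposite strand with Arf4, which had 15025 and 22068 counts.

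**Figure D3:**
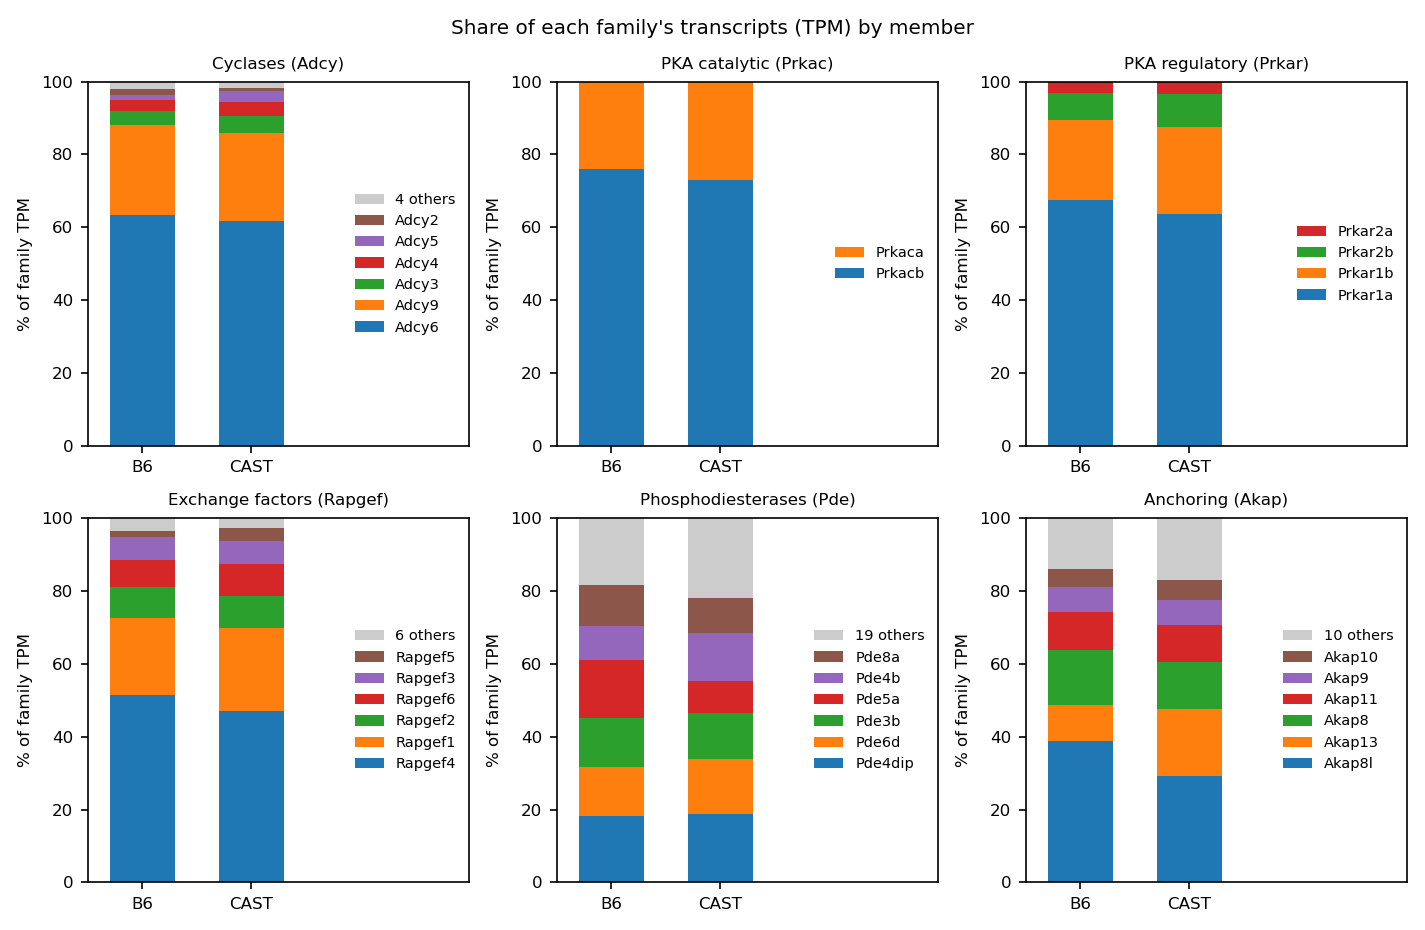
Share (% of the family's summed TPM, axis from 0 to 100) of each member in the B6 and the CAST library, for the 6 symbol groups; members beyond the leading ones are pooled in grey. The same gene leads every family in both libraries, with Adcy6 at 63.4% and 61.8%, Pde4dip at 18.2% and 18.7% and Akap8l at 38.8% and 29.1%. Below the leaders, Pde5a is at 16.1% and 8.78% and Akap13 at 9.82% and 18.4%.

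The anchoring genes held the same members at the top and a shift among them. Akap8l, a nuclear relative of AKAP95 (chromosome 17, 32321424 to 32350607), led with 9532 counts (73.8 TPM) in B6 and 8649 (43.1 TPM) in CAST. Its log2 ratio was -0.43 (-0.47 to -0.39), and its share of all Akap TPM was 38.8% in B6 and 29.1% in CAST. Akap8, which encodes AKAP95 and lies next to Akap8l (chromosome 17, 32303672 to 32321238), had 6778 counts (29.0 TPM) and 6937 (19.1 TPM), with a ratio of -0.26 (-0.30 to -0.21). Akap13, a large anchoring protein (chromosome 7, 75455534 to 75754609), went the other way. It had 10694 counts (18.7 TPM) in B6 and 19960 (27.2 TPM) in CAST, with a ratio of 0.61 (0.58 to 0.65), 1.53-fold higher in CAST, and its share of Akap TPM was 9.82% and 18.4%. The main transcripts of Akap13 have no entry in GENCODE M21, so what they encode was not used here.

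The other abundant anchoring genes lay between -0.81 and 0.47. Akap11, which binds PKA and the kinase GSK3, had 12063 counts (20.0 TPM) and 14154 (15.1 TPM), with a ratio of -0.06 (-0.09 to -0.02), and the Golgi and centrosome anchor Akap9 had 9530 (12.6 TPM) and 11710 (10.1 TPM), with 0.01 (-0.03 to 0.05). Akap10, a mitochondrial anchor with regulator of G protein signalling domains, had 2342 (9.71 TPM) and 3064 (8.14 TPM), with 0.10 (0.02 to 0.18). Akap1, the anchor of the outer mitochondrial membrane, had 1636 (7.25 TPM) and 2762 (7.65 TPM), with 0.47 (0.38 to 0.56). Akap7, a small membrane anchor, had the lowest ratio of the family, at 1250 counts (10.2 TPM) in B6 and 871 (5.03 TPM) in CAST and log2 -0.81 (-0.94 to -0.68), 1.75-fold higher in B6.

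The scaffolds Akap6 and Akap12 were the anchoring genes past 2-fold. Akap6, the nuclear envelope anchor mAKAP (chromosome 12, 52699383 to 53155599), had 653 counts (0.99 TPM) in B6 and 1922 (1.88 TPM) in CAST. Its log2 ratio of 1.27 (1.14 to 1.40), 2.41-fold higher in CAST, was the highest of the members with enough counts. Akap12, the scaffold gravin (chromosome 10, 4266380 to 4359470), had 1028 counts (2.58 TPM) and 2797 (4.51 TPM), with a ratio of 1.15 (1.05 to 1.26), 2.23-fold higher in CAST. Akap2 lay at 0.66 (0.56 to 0.77) with 1120 and 2169 counts; it shares 6891 exon bases on the same strand with Pakap, and the summed counts of both gave 0.70. Gravin is also made by fibroblasts and endothelial cells. Of the fibroblast markers 7 of 7 had a ratio above 0 (median 1.28) and of the endothelial markers 6 of 6 (median 0.45), none of them was at 0, and their part in the Akap12 and Akap6 ratios was not tested.

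The 14 members under 100 counts were left out of the counts and medians above. Akap4, Prkaca-ps1, Rapgef3os1 and Rapgef4os1 had 0 counts in both libraries, which allows up to 3 counts in each. The photoreceptor phosphodiesterase genes were near 0: Pde6a had 1 and 6 counts, Pde6g 16 and 16, Pde6h 17 and 14, and Pde6b 4 and 33. Pde11a had 8 and 13, Akap3 25 and 23, Rapgef3os2 5 and 1 and Rapgef4os2 32 and 18. Akap14 had 18 counts in B6 and 1 in CAST, a log2 ratio of -3.86 with an interval from -9.84 to -1.80, and Pde6b one of 2.63 (1.26 to 4.71). These counts are a description of 2 libraries at levels of at most 0.308 TPM. At 1 TPM or more, 43 members were detected in B6 and 46 in CAST, and the 43 were detected in both.

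The deposited files list transcripts, so the division of each gene among its transcripts could be read for 36 members, those with several transcripts and at least 100 counts per library. The most abundant transcript was the same one in 31 of 36 (86.1%), against 91.9% of 8981 genes at large. In 2 members (5.56%, against 1.48% of genes at large) the main transcript differed and the one that led in B6 had a share at least 30 percentage points lower in CAST. The error of this division of reads was not given in the sources used here. Adcy7-204 held 41.7% of Adcy7 TPM in B6, with 75.1 expected counts, and was at 0 counts in CAST, where Adcy7-203 held 51.3% (20.3% in B6). Adcy7-201 held 38.03% and 48.7%. All 4 Adcy7 transcripts have a coding length of 3297 bases and begin at different starts. Adcy4-202 held 58.6% of Adcy4 TPM in B6 and 26.1% in CAST, and Adcy4-201 41.4% and 73.9%, again with equal coding lengths of 3231 bases. Both genes were thinly covered, with 180 to 432 counts per library.

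The starts of Adcy7 are spread over chromosome 8, and the RefSeq windows upstream of the transcript that went to 0 in CAST and of the neighbouring start are shown side by side. They lie at chr8:88288816-88289065 and chr8:88293954-88294203 (GRCm38.p6, plus strand), 250 bases each, and neither holds a short element, so no letter is in capitals.
Adcy7-204 start: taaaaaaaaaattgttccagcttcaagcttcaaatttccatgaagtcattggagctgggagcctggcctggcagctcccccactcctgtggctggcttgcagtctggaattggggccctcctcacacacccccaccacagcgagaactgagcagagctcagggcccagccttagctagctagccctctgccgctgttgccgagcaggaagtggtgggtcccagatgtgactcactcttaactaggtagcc
Adcy7-201 start: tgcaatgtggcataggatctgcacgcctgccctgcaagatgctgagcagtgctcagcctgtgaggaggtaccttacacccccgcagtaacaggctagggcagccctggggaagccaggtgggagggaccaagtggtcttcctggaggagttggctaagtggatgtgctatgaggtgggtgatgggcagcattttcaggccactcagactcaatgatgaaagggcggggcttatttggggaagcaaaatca
The Adcy7-201 window was seen to read along the gene, and the Adcy7-204 window was not seen to read along either strand. The table of windows was matched to no start of Adcy7-203.

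Pde7a, Pde8b and Adcy9 had another main transcript in CAST with a smaller loss of share. Pde7a-202 held 34.2% of Pde7a TPM in B6 and 10.9% in CAST, where Pde7a-201 held 51.0%. Pde8b-211 held 39.2% and 18.6%, and Pde8b-209 led in CAST at 21.8%. Adcy9-201 held 47.2% and 29.3%, and Adcy9-202 led in CAST at 40.0%. Pde4d kept Pde4d-207 as its main transcript at 50.4% and 36.4%, while Pde4d-201, which has a longer coding sequence (2034 against 1752 bases), was at 3.76% in B6 and 34.6% in CAST, with 14 and 199.7 expected counts.

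**Figure D4:**
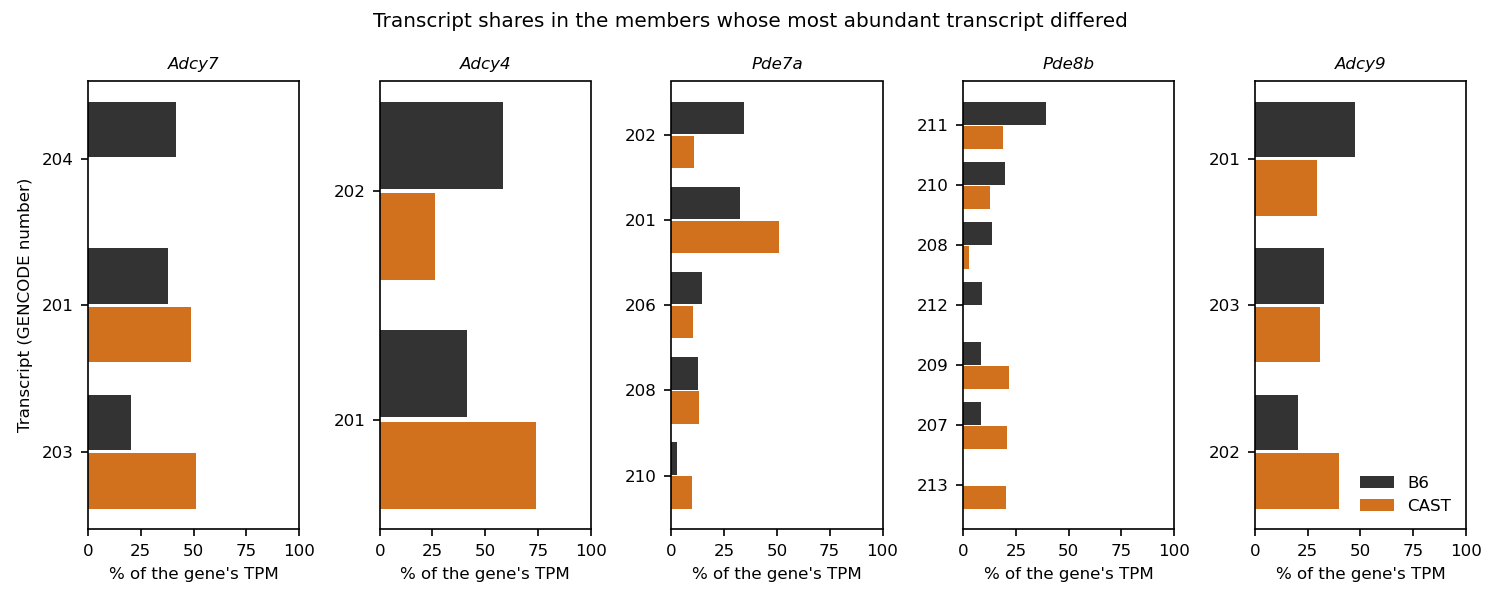
Share of each transcript (% of the gene's TPM, axis from 0 to 100) in the B6 (dark) and CAST (orange) libraries for the 5 members whose most abundant transcript differed; numbers are GENCODE transcript numbers. Adcy7-204 is at 41.7% in B6 with no bar in CAST, and in Adcy4 the shares of the pair of transcripts change places, 58.6% and 41.4% in B6 and 26.1% and 73.9% in CAST.

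Other genes of the pathway were read from lists of 63 genes, of which 53 had 100 or more counts. Of these 3 passed 2-fold on the CAST side and 0 on the B6 side, 5.66% in all where the background in either direction was 13.2%, and the median was -0.02. The 13 G protein subunit genes had a median of 0.09. Gnas, the stimulatory alpha subunit that drives the membrane cyclases, was at 960 TPM in B6 and 865 TPM in CAST with a log2 ratio of 0.17. Gnai3, an inhibitory alpha subunit, was the highest at 8504 and 18387 counts with 0.82 (0.79 to 0.86), followed by the phospholipase-coupled Gnaq at 0.24. The lowest were the inhibitory Gnai1 at -0.34 (-0.43 to -0.26) and Gnao1 at -0.32 (-0.34 to -0.29).

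The 11 genes of cyclic AMP-responsive transcription lay close together, with a median of -0.07. Crem, which includes the inducible repressor ICER, was the highest at 0.36 (0.27 to 0.45), then Sik2, a kinase that PKA restrains, at 0.11, and Sik1, a kinase that restrains CREB coactivators, the lowest at -0.33 (-0.39 to -0.27), with Crtc3 at -0.18. Sik2 shares 1429 bases with Ppp2r1b, which had 2827 and 5344 counts, and the summed counts of both gave 0.45. The PKA inhibitors divided. Pkia had 2182 counts (9.35 TPM) in B6 and 1344 (3.71 TPM) in CAST, with -0.99 (-1.09 to -0.89), 1.98-fold higher in B6, and Pkib had 1821 and 1416 counts, with -0.65 (-0.75 to -0.55). Pkig, the PKA inhibitor gene of highest TPM here, had 1693 counts (27.9 TPM) and 2359 (24.9 TPM), with 0.19 (0.10 to 0.28). Ppp1r1a, inhibitor 1 of protein phosphatase 1, which works when PKA phosphorylates it, had 23359 counts (297 TPM) and 47660 (390 TPM), with 0.74 (0.72 to 0.76). Ppp1r1b lay at 0.24 with 49 and 71 counts.

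Among Epac partners, the Rap1b GTPase gene had a ratio of 0.31 (0.28 to 0.34) and Rap1a -0.15 (-0.21 to -0.10), the latter with the near-identical copy Gm9392 at 48 and 26 counts. Plce1, a phospholipase that Rap activates, was the highest at 0.58 (0.40 to 0.76) with 386 and 704 counts, and Pclo, an active zone protein that binds Epac2, lay at -0.10. Of the channels and exporters, the cyclic nucleotide-gated channel subunit Cngb1 rested on 22 B6 and 200 CAST counts, with a log2 ratio of 2.87 (2.26 to 3.60), and Cngb3 on 37 and 111, with 1.29 (0.75 to 1.87), both under 1 TPM. Hcn4, a pacemaker channel that binds cyclic AMP, was the lowest at -0.71 (-0.81 to -0.60), and Abcc5, a cyclic nucleotide exporter, had 12237 counts (45.3 TPM) and 9729 (22.9 TPM), with -0.62 (-0.66 to -0.58).

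The 10 known CREB target genes had a median of -0.18 over the 8 with enough counts. Nr4a3 had 289 counts in B6 against 1012 in CAST, with 1.52 (1.33 to 1.71), whereas its relatives lay lower in CAST, Nr4a1 at -0.64 (-0.67 to -0.61) and Nr4a2 at -0.74 (-0.84 to -0.63). Per1, second highest, lay at 0.37 (0.33 to 0.40). Fos was at 1177 TPM in B6 and 770 TPM in CAST. These target genes respond to several other signals as well, so their levels are no measure of cyclic AMP.

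**Figure D5:**
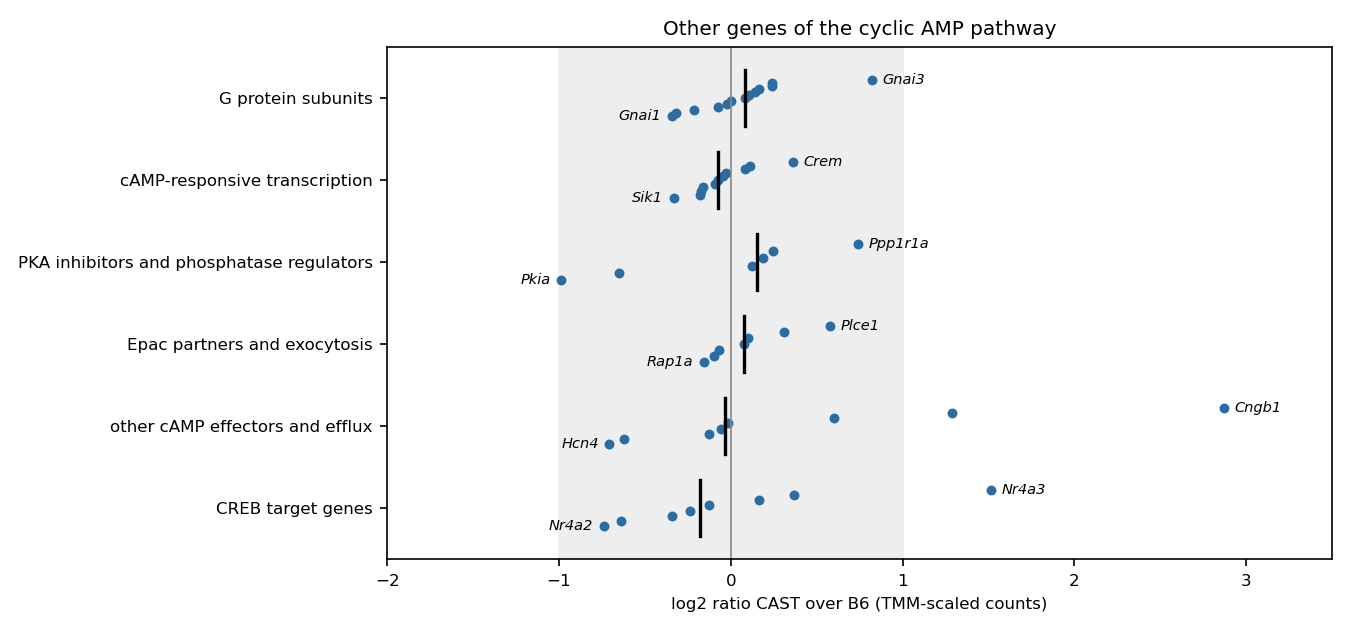
Log2 ratio of CAST over B6 (TMM-scaled counts) of 53 other pathway genes with 100 or more counts, by list; each point is a gene, the black bar is the list's median, the grey band spans ratios under 2-fold, and the highest and lowest genes are named. Cngb1, Nr4a3 and the unnamed Cngb3 lie beyond 2-fold on the CAST side, and no gene lies beyond it on the B6 side.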

How the data were processed

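Each strain gave 1 library. The deposited file of each lists 94545 mouse transcripts of 38924 genes. Its first value is an expected count, made by the authors with RSEM against GRCm38 (per the submitters' processing notes). The other deposited value sums to 1 per file and was read as the fraction of transcript molecules, which rescaled is TPM. Aligner, tool versions, annotation release, read layout and strand setting were not given in the sources used here. Reads of CAST were quantified on the same build as B6 reads, and loss of reads to strain variants was not tested.

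Each gene's expected counts were added up and then rounded to whole numbers. Symbols, positions and transcript types came from GENCODE M21; IDs without a match had 0.176% (B6) and 0.172% (CAST) of counts. TMM factors (edgeR 4.0.16, R 4.3.3) were 1.056 for B6 and 0.947 for CAST. The ratio is log2 of scaled counts with 0.5 added, where a gene had at least 100 counts in all; it was called apart at 2-fold, with no test. Floors are 3 counts per library. Near-identical copies were sought with minimap2 2.31 (95% identity over 200 bases and 50% of the shorter transcript), and the computation was tested on simulated data. Promoter windows came from RefSeq (GRCm38.p6), with 79 of 95 seen to read along their gene and none on the other strand.

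Named were all Adcy, Prkac, Prkar and Rapgef genes, the 8 Pde and 8 Akap genes of highest mean TPM, every member at least 2-fold apart, the highest and lowest ratio per group, members whose main transcript lost 30 points, and the 2 highest and 2 lowest genes per pathway list with any gene 2-fold apart. Pde3a, Pde4a, Pde4d, Pde6c, Pde7a, Pde9a, Pde12, Akap2, members under 100 counts, Gnas, Fos, Pkig, Ppy and Fabp4 were named after their values were seen. The members and lists were chosen with earlier results of these data known. Alternatives were DESeq2 1.42.0 size factors, total counts, TMM without hormone and acinar genes, TPM with a pseudocount of 1, a constant of 5, thinning of CAST counts, protein-coding transcripts only, other filters and the handling of copies. Python 3.11.15, numpy 2.4.6, pandas 2.3.3, scipy 1.17.1 and matplotlib 3.10.9 were used. Protein measurements were not analysed here.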

Additional observations from a re-analysis of the deposited data

How the results depend on the processing

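With 1 library per strain no library could be left out. No paired analysis was possible because each strain has 1 library and no test was made. Under DESeq2 size factors and TMM factors without hormone and acinar genes the same 4 members were 2-fold higher in CAST and the same 2 in B6, and the members' median and family medians moved by less than 0.01. With total counts 2 members were 2-fold higher in CAST (Akap6, Pde7b) and 5 in B6 (Adcy1, Adcy2, Adcy8, Pde5a, Rapgef4os3). In either direction that was 12.5% of members against 14.2% of all genes. The medians were then -0.16 for members, -0.56 for Adcy, -0.075 for Prkac, 0.12 for Prkar, -0.33 for Rapgef, -0.11 for Pde and -0.12 for Akap, and genes higher in CAST made up 44.2% of all genes past 2-fold, against 54.5% with TMM. With TPM and a pseudocount of 1, which shrinks low genes, 0 members were 2-fold higher in CAST and 1, Pde5a, in B6. That was 1.79% of members against 8.13% of all genes. The medians were -0.22 for members, -0.31 for Adcy, -0.26 for Prkac, -0.054 for Prkar, -0.35 for Rapgef, -0.17 for Pde and -0.14 for Akap, where that of all genes was -0.26, and 38.6% of all genes past 2-fold were higher in CAST. With no filter on counts 7 members passed 2-fold on the CAST side, 5 did on the B6 side, and the Adcy median was -0.29. In either direction 18.2% of members passed 2-fold without the filter, against 30.1% of all genes with any count. With CAST thinned to the B6 total Rapgef5 took the place of Pde8b among 4, and with a constant of 5 Pde8b dropped out. Past 2-fold lay 10.9% of members against 12.8% of all genes with thinning, and 8.93% against 12.9% with the constant. With protein-coding transcripts only 4 members passed 2-fold on the CAST side (Akap13 in, Pde8b out) and 3 on the B6 side (Adcy8 added), 12.7% of members against 10.6% of all genes. For Akap13 this left 1 transcript, with 0 expected counts in B6 and 138.7 in CAST, since its other transcripts have no type in GENCODE M21. The medians were then -0.44 for Adcy and 0.046 for Prkac, and the leading shares were 66.8% for Prkar1a in B6, 53.9% and 48.6% for Rapgef4, 18.8% and 19.5% for Pde4dip and 43.6% and 35.9% for Akap8l. Without members that have a near-identical copy Akap8l held 39.3% and 29.9%. At 5 TPM or more 28 members were detected in B6 and 25 in CAST, a level at which all genes were not counted. Intervals cover counting error only: differences between mice, isolations and library preparations are not in them, and a member near 100 counts has an interval about 1 log2 unit wide.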
